A study of Mus musculus with 4 samples.

Results

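Members of the AP-1 and BATF families of transcription factors were measured by RNA sequencing in mouse T-helper 17 (Th17) cells. These are helper T lymphocytes known for secreting interleukin 17. The 10 genes were taken by name: the JUN genes Jun, Junb and Jund, the FOS genes Fos, Fosb, Fosl1 and Fosl2, the BATF genes Batf and Batf3, and Atf3. All 10 were found among the 50600 gene identifiers of the count tables. The design has 1 group of 4 libraries, labelled as biological replicates 1 to 4 of primary Th17 cells from strain C57BL/6NJ. The cells carry no treatment, allele or time in the labels, which name 1 shared donor identifier, a linked CD4 T cell differentiation protocol, and sex and age as not recorded. The headers of the 4 files carry a tag of 2 hours without naming the event it was counted from. The labels do not say that the libraries came from separate animals or cultures. Every SD and p-value below therefore measures only the spread between these libraries.

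AP-1 is a dimer of basic leucine zipper proteins that binds short palindromic DNA elements. JUN proteins pair with each other or with FOS proteins, while FOS proteins need a JUN partner to bind DNA. Many AP-1 genes are immediate early genes, switched on by MAP kinases and calcium after T cell receptor ligation. BATF and BATF3 have the basic region and zipper but no transactivation domain. In mouse Th17 cells BATF pairs with JUN proteins, mainly JUNB, and binds composite DNA elements together with IRF4. Mouse Batf and Junb are required for Th17 differentiation.

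The libraries held 25847970 to 40652146 counted fragments. The CD4 T cell markers were present in every library, with Cd4 at 364 ± 35.1 TPM (counts divided by exon length and scaled to the same total in each library) and Cd3e at 226 ± 18.8 TPM (SD, n = 4). The Th17 markers stood low, with Il17f at 12.4 ± 5.91 TPM and Il17a at 5.65 ± 1.20 TPM, and Ccr6 and Il23r rested on 15 and 11 counts over the 4 libraries. Of the markers of other cells, Cd8b1 of CD8 T cells stood above all the Th17 markers at 27.0 ± 4.86 TPM, while Cd8a of the same list stood at 0.216 ± 0.184 TPM. Cd68 of myeloid cells stood at 10.4 ± 5.33 TPM, Cd79a of B cells at 1.15 ± 0.516 TPM, Col1a1 of stroma at 1.35 ± 0.296 TPM and Eomes of NK cells at 1.12 ± 0.345 TPM. Ms4a1 of B cells, Ncr1 and Klrb1c of NK cells, Col3a1 of stroma and all 3 erythroid genes had 0 counts. The summed TPM over 5 B cell markers was 0.392 to 1.88 per library and that over 6 myeloid and dendritic markers 5.61 to 18.1. Of these 6 markers only Cd68 reached a mean of 1 TPM, and the median over the 6 was 0.052 TPM. The part of these cells in the levels below was not tested. Sex-linked genes set replicates 1 and 2 apart from replicates 3 and 4. Xist stood at 0.791, 0.602, 142 and 76.5 TPM and the Y-linked Ddx3y at 305, 213, 0.914 and 1.39 TPM in replicates 1 to 4. The 4 libraries therefore did not all come from 1 animal, though the labels name 1 shared donor identifier. The spread within either of these sets of libraries may be technical. Their part in any difference between the libraries below was not tested. In bulk RNA, fewer cells of a type and less RNA per cell cannot be told apart.

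Promoter sequences from RefSeq (build GRCm38.p6, the assembly of mm10) are shown for 5 genes, 5′ to 3′ on the gene's own strand, with 250 bases before and 50 after the RefSeq transcript start. Junb is shown as the gene with the highest TPM. Fos with Batf, and Atf3 with Batf3, are shown because each pair lies close together on 1 chromosome, and Batf3 was the gene without a count. Capitals mark TGACG, the core of the cyclic AMP response element bound by AP-1 and ATF proteins, on either strand.
Junb, chr8:84978699-84978998, minus strand: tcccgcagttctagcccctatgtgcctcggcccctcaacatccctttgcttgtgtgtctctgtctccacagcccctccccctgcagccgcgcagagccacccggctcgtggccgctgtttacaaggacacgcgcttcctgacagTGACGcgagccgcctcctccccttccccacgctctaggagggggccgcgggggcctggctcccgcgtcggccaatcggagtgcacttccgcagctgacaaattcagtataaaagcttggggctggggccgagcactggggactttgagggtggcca
Fos, chr12:85473640-85473939, plus strand: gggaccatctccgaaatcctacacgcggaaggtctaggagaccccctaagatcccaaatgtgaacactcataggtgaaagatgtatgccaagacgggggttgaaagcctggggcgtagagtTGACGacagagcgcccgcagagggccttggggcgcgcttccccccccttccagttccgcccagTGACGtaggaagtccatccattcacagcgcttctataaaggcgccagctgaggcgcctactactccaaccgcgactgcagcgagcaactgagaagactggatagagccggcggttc
Batf, chr12:85686470-85686769, plus strand: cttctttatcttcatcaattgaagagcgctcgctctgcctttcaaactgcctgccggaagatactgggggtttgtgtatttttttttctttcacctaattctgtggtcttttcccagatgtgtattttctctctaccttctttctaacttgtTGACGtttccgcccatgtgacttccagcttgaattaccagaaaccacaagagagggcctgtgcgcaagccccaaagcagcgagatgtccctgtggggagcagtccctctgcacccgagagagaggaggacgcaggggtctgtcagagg
Atf3, chr1:191183284-191183583, minus strand: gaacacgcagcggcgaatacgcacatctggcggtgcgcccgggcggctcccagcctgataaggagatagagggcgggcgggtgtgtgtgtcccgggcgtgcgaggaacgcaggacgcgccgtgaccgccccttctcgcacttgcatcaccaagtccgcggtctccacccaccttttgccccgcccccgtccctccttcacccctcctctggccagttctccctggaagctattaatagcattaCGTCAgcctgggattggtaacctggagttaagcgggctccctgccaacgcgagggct
Batf3, chr1:191098164-191098463, plus strand: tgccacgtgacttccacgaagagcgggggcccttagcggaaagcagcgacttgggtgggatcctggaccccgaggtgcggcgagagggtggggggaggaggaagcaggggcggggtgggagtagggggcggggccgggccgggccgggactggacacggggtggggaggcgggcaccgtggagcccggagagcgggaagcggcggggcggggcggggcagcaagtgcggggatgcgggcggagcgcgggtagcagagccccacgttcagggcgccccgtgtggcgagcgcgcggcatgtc

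The promoter table matched 9 of the 10 genes, all but Fosl1. TGACG was found on either strand in 5 of the 9, Junb, Fos, Fosb, Batf and Atf3, and in 20.8% of the 32851 promoters in the table. Its match began at base -106 from the start in Junb, at -129 and -66 in Fos, at -98 in Batf, at -60 in Fosb and at -7 in Atf3. The whole cyclic AMP response element TGACGTCA, which contains TGACG, was in none of the 9 and in 1.79% of all promoters. The element bound by FOS and JUN dimers, TGANTCA, was in none of the 9 and in 7.81% of all. The variant TGACATCA, known from the Jun promoter and shared with neither of those, was in Jun alone of the 9, from base -45, and in 3.62% of all. The TATA box letters TATAAA, searched on the gene's strand and not capitalised, were in Fos from base -33 and in Junb from base 1, and in 8.32% of all. These letters were chosen with the sequences in view, and a match is a description and not a binding site. The RefSeq start lies 30 bases upstream of the Junb start in the count tables and 1210 bases upstream of the Jund start. The Jund sequence searched therefore ends before the counted gene begins, though it is among the 9. The starts of Atf3, Batf3 and Batf shown lie 34706, 567 and 51 bases inside the genes as the tables delimit them. That of Fosl2, searched but not shown, lies 671 bases inside.

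The 10 genes together took 0.847 ± 0.0370% of all counts (SD, n = 4). Mean levels reached 1 TPM in 9 of the 10 and 10 TPM in 8 of the 10, against 45.2% and 31.8% of the 21764 protein coding genes. The means of 7 genes exceeded 100 TPM and those of 3 exceeded 1000 TPM. No more than 0.0622% of the distinct 31-base words of any of the 10 genes, the share in Fosl2, occurred in a transcript of another gene.

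**Figure D1:**
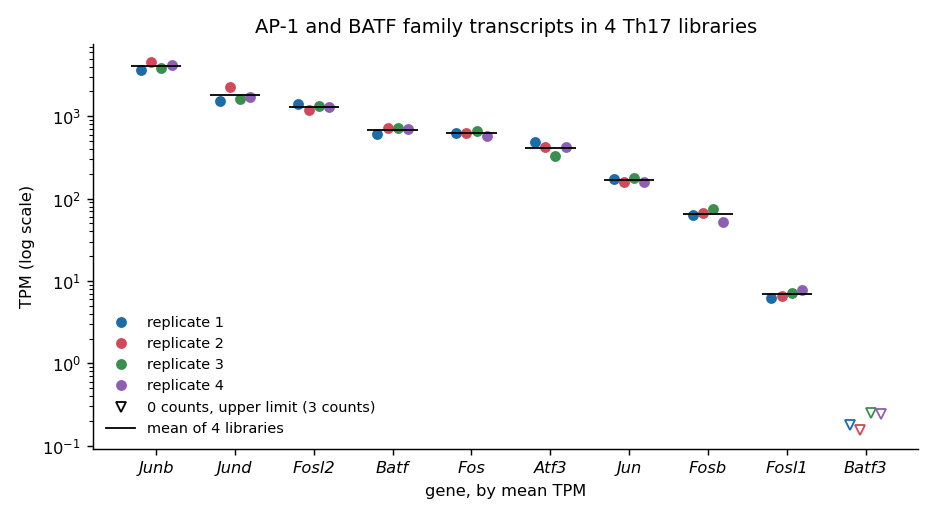
Levels of the 10 genes in TPM (y axis, log scale) in each of the 4 Th17 libraries (dots), ordered by mean (black line). Levels run from 4039 TPM for Junb to 6.95 TPM for Fosl1; Batf3 had 0 counts, and its open triangles mark the upper limit that 3 counts would give in each library.

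Junb and Jund held the highest levels per length, while Fosl2 stood above both without division by length and above Jund with the longest-transcript length. Junb, the JUN protein that partners BATF, stood at 3679, 4506, 3820 and 4151 TPM in replicates 1 to 4, a mean of 4039 ± 369 TPM. That mean ranked 19 among the protein coding genes. The gene lies on chromosome 8 from 84974484 to 84978718 (mm10, minus strand). Jund, the JUN protein that is made constitutively in many cells, stood at 1552, 2289, 1630 and 1729 TPM, a mean of 1800.1 ± 334 TPM and rank 63. Replicate 2 was the highest library for both genes and, in TPM, replicate 1 the lowest. With counts per exon length scaled by the TMM library sizes of edgeR instead (FPKM), replicate 3 was the lowest for both. Jund has 1 exon on chromosome 8 from 70698949 to 70700616 (plus strand), 14274 kb from Junb. Jun, which encodes the classical partner c-JUN, stood at 175, 158, 177 and 159 TPM, a mean of 167 ± 10.1 TPM and rank 942. It too has 1 exon, on chromosome 4 from 95049034 to 95052222 (minus strand). Its libraries lay close together, with a coefficient of variation of 6.06% in TPM, the lowest of the 9 genes with counts, and Fos next at 6.20%. In FPKM the spread relative to the mean was smaller for Fos (183 ± 4.93) than for Jun (48.8 ± 1.70).

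The FOS genes were led by Fosl2 and not by Fos. Fosl2, which encodes FRA2, stood at 1424, 1183, 1346 and 1280.0 TPM in replicates 1 to 4, a mean of 1308 ± 102 TPM and rank 88. It lies on chromosome 5 from 32135801 to 32157842 (plus strand) and has the longest annotated exons of the 10 genes, 9680 bases in all. Fos, the prototype immediate early gene, stood at 634, 621, 670.4 and 577 TPM, a mean of 625 ± 38.8 TPM and rank 194. The level of Fosl2 was 2.09 ± 0.164 times that of Fos. Fosb, another immediate early gene, stood at 63.3, 67.1, 74.8 and 52.2 TPM, a mean of 64.3 ± 9.42 TPM. Fosl1, which encodes FRA1, stood at 6.30, 6.51, 7.19 and 7.81 TPM, a mean of 6.95 ± 0.686 TPM on 445 counts in all. Fosb was highest in replicate 3 in TPM and in replicate 2 in FPKM. On both scales it was lowest in replicate 4, whereas Fosl1 was highest there. Fosb lies on chromosome 7 from 19302696 to 19310051 (minus strand) and Fosl1 on chromosome 19 from 5447703 to 5455945 (plus strand).

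Batf was among the higher genes and its paralog Batf3 had no counts. Batf stood at 603, 722, 719 and 693 TPM in replicates 1 to 4, a mean of 684 ± 55.8 TPM and rank 177, with replicate 1 the lowest library. Batf3, known in mice for the development of cross-presenting dendritic cells, had 0 counts in all 4 libraries. A count of 0 allows a level of up to 0.179, 0.154, 0.248 and 0.243 TPM in replicates 1 to 4, counting error only. Batf3 covers 1597 exon bases on chromosome 1 from 191097847 to 191108945 (plus strand). Atf3, a stress-induced ATF protein that pairs with JUN proteins, stood at 489, 421, 332 and 424 TPM, a mean of 417 ± 64.5 TPM and rank 327. Replicate 1 was its highest library and replicate 3 its lowest.

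In the order of mean levels, Junb came first, followed by Jund, Fosl2, Batf, Fos, Atf3, Jun, Fosb, Fosl1 and Batf3. The libraries of 44 of the 45 possible pairs of genes did not overlap in TPM. The same count was not made for pairs of other genes. The pair that overlapped was Batf and Fos, neighbours in the order. Batf exceeded Fos by 0.13 ± 0.15 on the log2(TPM + 1) scale (SD, n = 4), was higher in 3 of 4 libraries and had p = 0.25 (adjusted p = 0.25) in an exact permutation test over the signs of the library differences, two-sided. The next smallest step was Jund over Fosl2, at 0.45 ± 0.36 and higher in 4 of 4 libraries. Their nearest values were 1552 TPM for Jund and 1424 TPM for Fosl2, both in replicate 1. The steps from Junb to Jund, Fosl2 to Batf, Fos to Atf3, Atf3 to Jun, Jun to Fosb and Fosb to Fosl1 were 1.18 ± 0.14, 0.93 ± 0.22, 0.60 ± 0.29, 1.30 ± 0.27, 1.37 ± 0.18 and 3.03 ± 0.29. In each of these 6 the first gene was higher in 4 of 4 libraries. In the same exact permutation test each of the 44 other pairs had p = 0.125 (adjusted p = 0.128 over the 45 pairs), the smallest value that 4 libraries allow, so no pair could pass 0.05.

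Both close steps of the order turned with the gene length used. With the longest protein coding transcript of GENCODE M21 in place of all annotated exons, a setting chosen after the data were seen, Jund stood at 1345 ± 252 TPM and Fosl2 at 1447 ± 110 TPM. Batf then stood at 511 ± 41.8 TPM and Fos at 521 ± 31.3 TPM. No other pair turned under that setting, where 43 of the 45 pairs did not overlap between the libraries. Scaled by library total alone, with no division by length, Fosl2 led all 10 genes at 3701 ± 224 CPM and Junb followed at 2724 ± 323 CPM, with Jund at 881 ± 185 CPM. Batf, at 191 ± 17.4 CPM, then stood below both Fos at 429.9 ± 17.0 CPM and Atf3 at 263 ± 44.1 CPM.

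By subfamily, the 3 JUN genes held 65.8 ± 3.08% of the summed TPM of the 10 genes, the 4 FOS genes 22.1 ± 2.68%, Batf 7.51 ± 0.527% and Atf3 4.59 ± 0.808%, whereas without division by length the JUN genes held 44.3% and the FOS genes 50.3%. The summed TPM of the JUN genes was 2.54, 3.70, 2.68 and 3.15 times that of the FOS genes in replicates 1 to 4. Replicate 2 was highest and replicate 1 lowest in this ratio. Within the JUN genes Junb held 67.4 ± 1.75%, Jund 29.8 ± 2.08% and Jun 2.82 ± 0.451%. Within the FOS genes Fosl2 held 65.2 ± 1.94%, Fos 31.2 ± 1.55%, Fosb 3.21 ± 0.429% and Fosl1 0.348 ± 0.0457%. Every library had these members in the same order.

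**Figure D2:**
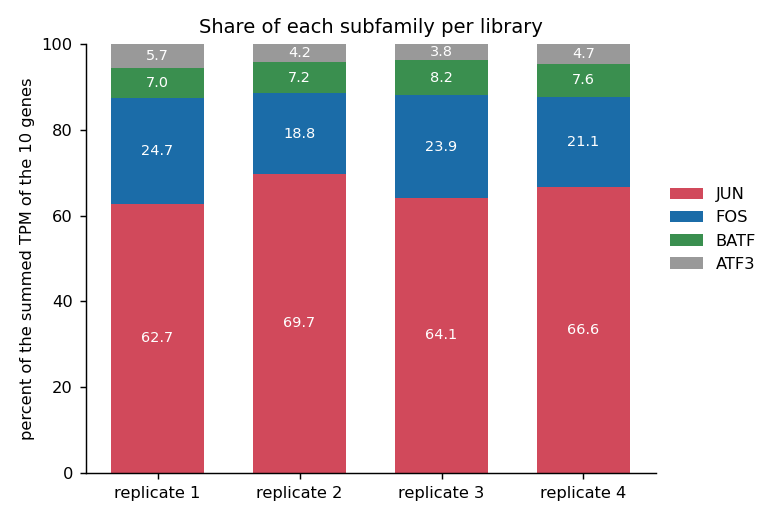
Percent of the summed TPM of the 10 genes (y axis) held by the JUN, FOS and BATF genes and by Atf3 in each library (bars). The JUN share lies between 62.7% and 69.7% and the FOS share between 18.8% and 24.7%; without division by length the mean JUN share is 44.3% and the mean FOS share 50.3%.

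Whether any of the genes differed between the libraries by more than genes of like abundance was tested with edgeR, on the counts of 11567 genes that passed its expression filter. Of the 10 genes 9 were tested, all but Batf3. None of the 9 varied beyond the trend at an adjusted p under 0.05, where 0.813% of all tested genes did. None of the 9 had an unadjusted p under 0.05 either, against 5.98% of all tested genes. With the dispersion trend of DESeq2 in its place, 0 of 9 passed the adjusted threshold and 2, Jund and Atf3, had an unadjusted p under 0.05. In edgeR 1 of the 9 did so without replicate 2 (Atf3), without replicate 3 (Jund) and without replicate 4 (Jund). The lowest value in edgeR belonged to Jund (adjusted p = 0.954), whose highest library stood 1.48 times above its lowest. The same ratio was 1.47 for Atf3, 1.43 for Fosb and 1.16 for Fos, and the other 8 genes had an edgeR adjusted p of 1.00. The fitted biological coefficient of variation lay above the trend for Jund and Atf3. For the other genes of the family it lay below, as for many of the other tested genes. The coefficient was 16.0% for Jund and 15.6% for Atf3, where the trend stood at 13.8% and 13.6%. It was 11.9% for Fos and 11.1% for Jun, where the trend stood at 13.8% and 12.9%.

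**Figure D3:**
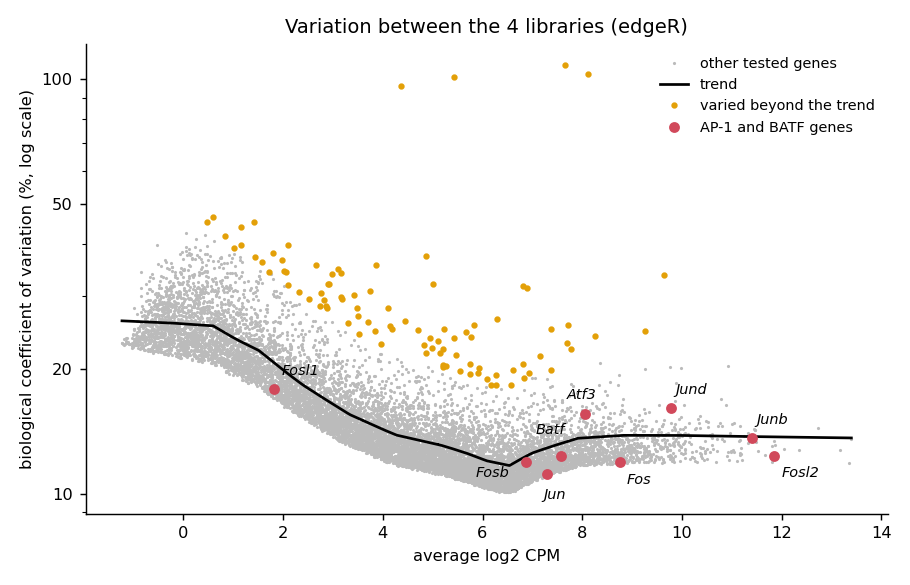
Biological coefficient of variation between the 4 libraries fitted by edgeR (y axis, percent, log scale) against average log2 CPM (x axis) for 11567 tested genes (grey), with the trend (black line), the 94 genes that varied beyond it (yellow) and the 9 tested AP-1 and BATF genes (red). Jund at 16.0% and Atf3 at 15.6% lie above the trend, and no red point lies among the yellow ones.

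The small differences that remained did not run in parallel across the family. In TPM, replicate 2 was the highest library for Junb, Jund and Batf and replicate 3 for Fos, Fosb and Jun. Replicate 1 was highest for Fosl2 and Atf3, and replicate 4 for Fosl1. The ranks of Fos, Fosb and Jun changed in FPKM. Fos and Fosb were then highest in replicate 2, at 188 and 20.3 against 180 and 20.1 in replicate 3. Jun was highest in replicate 1 and lowest in replicate 3, at 51.3 and 47.6 FPKM. In replicate 2, Jund lay 0.36 above and Fosl2 0.14 below its own mean on the log2(TPM + 1) scale. In replicate 3, Fosb lay 0.23 above and Atf3 0.31 below. Gene length moved with the library as well. In replicate 3 the median tested gene lay 0.10 above its own mean, with 0.04 among genes of up to 2887 exon bases and 0.15 among genes of 5347 or more, and in replicate 4 those medians were -0.06, -0.02 and -0.10. The part of length in the members' deviations was not tested.

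**Figure D4:**
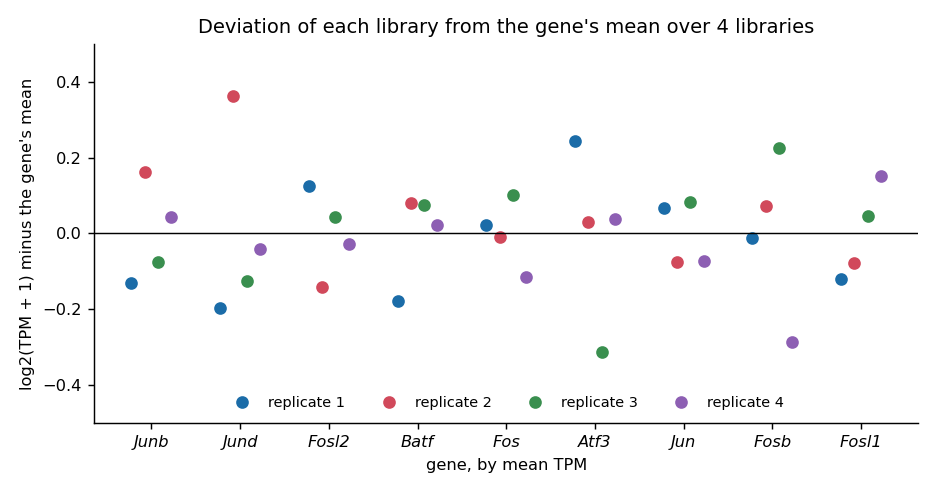
Deviation of each library (coloured dots) from the gene's mean over 4 libraries, as log2(TPM + 1), for the 9 genes with counts. The deviations run from -0.31 for Atf3 in replicate 3 to 0.36 for Jund in replicate 2, and no library is highest for all genes.

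Jund and Jun each have an antisense gene on the opposite strand, and the counting used strand. Gm11175, a noncoding gene that overlaps Jund by 919 bases and was singled out after its values were seen, had 118, 37, 15 and 21 counts in replicates 1 to 4. It was highest in replicate 1, where Jund was lowest in TPM, as were Junb, Batf and Fosl1. In FPKM, Jund was lowest in replicate 3, which also held the fewest counts of Gm11175. The share of Gm11175 in the counts of Gm11175 and Jund combined was 0.432% in replicate 1 (95% Wilson interval 0.361 to 0.517%), against 0.0728 to 0.0941% in the other libraries. Gm11175 varied beyond the trend (edgeR adjusted p = 0.00672). The call ended without replicate 1 (adjusted p = 0.999) and with the DESeq2 dispersion trend (adjusted p = 0.0653). Antisense genes as a class took 0.0920% of the counts in replicate 1 and 0.0822 to 0.105% in the others. Junos, which overlaps Jun by 689 bases, had 12, 16, 11 and 4 counts, 0.102 to 0.259% of those of Junos and Jun combined. The intervals of its 4 libraries overlapped. Whether the counts of Gm11175 and Junos came from antisense transcripts or from sense fragments assigned to the wrong strand was not tested. At the 3′ end of Junb, the peroxiredoxin gene Prdx2 overlaps it by 351 bases on the opposite strand and stood at 29.3 ± 3.39 TPM. Gm24748, a small noncoding gene opposite Atf3, had 0 counts.

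The genes of 2 pairs are close neighbours. Fos and Batf lie 209 kb apart on chromosome 12, on the same strand, Fos from 85473890 to 85477273 and Batf from 85686669 to 85709087. The protein coding gene annotated between them, Jdp2, encodes an AP-1 protein that represses transcription. It had 0, 9, 2 and 1 counts in replicates 1 to 4, a mean of 0.150 ± 0.171 TPM, while its neighbours stood at 625 and 684 TPM. Batf3 and Atf3 lie 61.4 kb apart on chromosome 1 on opposite strands, Atf3 from 191170296 to 191218039. The 2 genes annotated between them, Fam71a and the noncoding Gm38161, had 0 counts in every library, as Batf3 did, while Atf3 stood at 417 TPM.

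**Figure D5:**
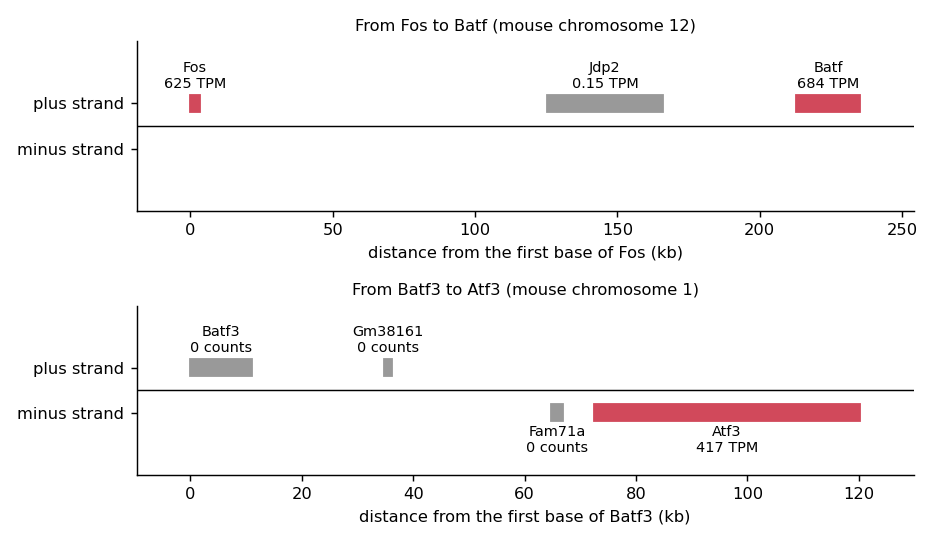
Genes from Fos to Batf (top) and from Batf3 to Atf3 (bottom) by distance in kb from the first base of Fos or Batf3 (x axis), on the plus strand above the line and the minus strand below it, with mean TPM over 4 libraries. Red genes have a mean of 1 TPM or more; Jdp2 at 0.150 TPM lies between Fos at 625 TPM and Batf at 684 TPM.

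The protein coding genes whose levels followed Junb most closely, by the root mean square difference of log2(TPM + 1) over the 4 libraries, were H2-D1 (0.085) and Rps3a1 (0.11). Those nearest to Jund were Rps29 (0.14) and Socs1 (0.16), and those nearest to Fosl2 were Btg1 (0.13) and Cd69 (0.13). The measure takes in the mean level and the deviation of each library together.

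Mean levels reached 1 TPM in 17 of 23 other basic leucine zipper genes, and none of the 17 tested varied beyond the trend. The highest were Atf4, the effector of the integrated stress response, at 877 ± 53.4 TPM, and the small MAF genes Maff at 249 ± 35.4 TPM and Mafk at 175 ± 3.56 TPM. Only Atf4 stood above Batf and Fos. Among the lowest was Batf2, the remaining BATF paralog, at 0.381 ± 0.273 TPM on 40 counts. Nfe2 and Nfe2l3, which encode cap'n'collar proteins, had 0 counts.

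The kinases that act upstream of AP-1 were broadly present. Mean levels reached 1 TPM in 21 of 23 MAP kinase pathway genes, and none of the 21 tested varied beyond the trend. Map2k3, a kinase that activates p38, stood at 245 ± 55.4 TPM, the JNK pathway kinase gene Map3k1 at 196 ± 14.5 TPM and Mapk11, which encodes p38 beta, at 108 ± 27.4 TPM. Mapk10, which encodes the neuronal JNK isoform, had 0 counts. Of 10 genes for regulators of Fos and Jun transcription 9 reached 1 TPM. Elk4, a ternary complex factor on the Fos promoter, stood at 216 ± 26.9 TPM, Mef2d at 151 ± 16.5 TPM and Srf, which encodes serum response factor, at 122 ± 9.99 TPM, while Mef2c was lowest with 18 counts. None of the 9 tested varied beyond the trend.

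The DNA binding partners of AP-1 in T cells all reached 1 TPM, 11 of 11, and none varied beyond the trend. Irf4, the partner of BATF and JUN dimers, stood at 1703, 1972, 2205 and 1544 TPM in replicates 1 to 4. Its mean was 1856 ± 292 TPM, and its libraries overlapped those of Jund and lay below those of Junb. Stat3 stood at 599 ± 37.2 TPM and Ets1 at 349.6 ± 41.8 TPM. The lowest was Nfatc2, a calcium-regulated partner of FOS and JUN dimers, at 18.9 ± 4.93 TPM.

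All 13 genes for regulators of AP-1 protein and mRNA turnover reached 1 TPM, and none of the 13 varied beyond the trend. Zfp36, whose product destabilizes AU-rich mRNAs such as that of Fos, stood at 1398 ± 132 TPM, Zfp36l1 at 1204 ± 94.4 TPM and Zfp36l2 at 267 ± 10.9 TPM. The lowest was Cop1, a ubiquitin ligase for c-JUN, at 4.40 ± 0.210 TPM. The 15 other immediate early genes all reached 1 TPM, with a median over genes of 1512 TPM and none varying beyond the trend. They were led by Nr4a1 at 14458 ± 505 TPM, Egr1 at 3965 ± 359 TPM and Nr4a3 at 3836 ± 486 TPM, with Egr4 lowest at 3.36 ± 0.833 TPM. Zfp36 stands in both lists. The mean of Junb, 4039 TPM, lay beside that of Egr1, and their libraries overlapped.

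Genes described as AP-1 targets in T cells were spread widely. Mean levels reached 1 TPM in 10 of 18. The activation marker Cd69 stood at 1243 ± 92.3 TPM, the cytokine gene Tnf at 712 ± 111 TPM and Il2ra, the interleukin 2 receptor chain, at 84.2 ± 27.9 TPM, while Mmp9 was lowest with 4 counts. Of the 10 that were tested 3 varied beyond the trend, Il2, Il2ra and Il17f (edgeR adjusted p = 7.3e-05, 0.0055 and 0.017). Among all tested genes 0.813% did. The list was chosen with earlier results of these data known, so its count cannot be read as a result about AP-1 targets. Il2, Il2ra and Il17f were all highest in replicate 4, with Il2 at 43.5 TPM there against 12.9 to 21.9 TPM in the other libraries. Among the AP-1 and BATF genes Fosl1 was highest in replicate 4, Fosb and Fos were lowest there, and Junb, Jund, Jun, Fosl2, Batf and Atf3 stood between their extremes. Without replicate 4 none of the 3 passed (adjusted p = 0.9998, 0.491 and 0.9998). Il2ra and Il17f also lost their calls without replicate 2 (adjusted p = 0.107 and 0.213) and Il17f without replicate 1 (adjusted p = 0.0511).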

How the data were processed

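Total RNA was sequenced from 4 libraries of 1 group, so no test between groups was made. The labels link a library protocol named for poly(A)+ RNA. Each deposited table holds gene-level fragment counts without normalization, from featureCounts 1.4.6-p4 on GENCODE mouse M13 exons with reverse strandedness (option value 2), per the file headers. The headers show no option that admits multiply aligned fragments. The alignment files were named for STAR, and its version was not stated.

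Identifiers without version were matched to GENCODE M21 symbols (50376 of 50600). TPM and CPM were computed here from the deposited counts and exon lengths. Variation between libraries used edgeR 4.0.16 in R 4.3.3: an intercept only, the default expression filter, TMM normalization, and each gene's deviance given the dispersion trend, compared with chi-square on 3 degrees of freedom, Benjamini-Hochberg adjusted over all tested genes. The step was tested on simulated data. Pairs of genes were compared with an exact sign-flip permutation test. A 3-count floor gives the limit for a count of 0. Intervals cover counting error only. Python 3.11.15 and scipy 1.17.1 were used.

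The members and lists were chosen with earlier results of these data known. Genes named are all 10 members, the 3 highest, the lowest and any varying gene of each list, the 2 nearest in level to each of the 3 highest members, and neighbours or overlapping genes. The marker and sex-linked genes, Batf2, Gm11175, Junos, Prdx2, Gm24748, Gm38161 and the list members at 0 counts were named after their values were seen. Alternatives were DESeq2 1.42.0 size factors or dispersion trend, no filter, other scalings and lengths, a pseudocount of 0.1, a threshold of 10 TPM and leaving out each replicate.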

Additional observations from a re-analysis of the deposited data

Results flagged for a closer look

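Of 60 genes with counts that the text names, 4 had 1 library far from the other 3 by Dixon's test for an outlying value, which chance gives in about 1 of 20 groups. Gm11175, the antisense gene opposite Jund, stood at 12.8, 3.45, 2.26 and 3.10 TPM in replicates 1 to 4, a gap of 0.887 of its range. Srf stood at 127, 127, 107 and 127 TPM, lower in replicate 3 by a gap of 0.965 of its range. Mafk stood at 177, 177, 170.0 and 177 TPM, lower in replicate 3 by a gap of 0.922 of its range. Cd3e stood at 219, 218, 254 and 214 TPM, higher in replicate 3 by a gap of 0.862 of its range. In that library the median tested gene lay 0.10 above its own mean on the log2(TPM + 1) scale. In edgeR, Cd3e had an unadjusted p of 0.991. Dixon's test was run on TPM only. It set apart none of the 9 AP-1 and BATF genes with counts, and Batf3, at 0 in every library, was not tested.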

How the results depend on the processing

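The count of varying AP-1 and BATF genes was 0 of 9 under every alternative run, with lowest adjusted p-values from 0.495 to 0.999. The count over all genes, 94, was 92 with DESeq2 size factors, 85 with no filter and 94 with the DESeq2 dispersion trend, but 35 to 60 with 1 replicate left out. The subfamily shares depended on length. Without division by length the FOS, JUN, BATF and ATF3 shares were 50.3%, 44.3%, 2.26% and 3.10%, and with the longest protein coding transcript the FOS and BATF shares were 25.1% and 6.23%. The order of pairs turned 6 times. The log2 difference was -0.45 for Junb minus Fosl2, -2.09 for Jund minus Fosl2, -1.17 for Batf minus Fos and -0.45 for Batf minus Atf3 without division by length, and -0.12 for Jund minus Fosl2 and -0.030 for Batf minus Fos with the longest transcript. Of 242 values under an alternative, these 6 reversed, 12 moved and 224 did neither. No paired comparison between groups was possible because the design has 1 group. The pairs of genes were compared within libraries.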
